A study of Neurospora crassa with 8 samples.

Results

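Neurospora crassa, a filamentous ascomycete, was grown for 48 hours in shaken liquid culture at 32 degrees C, and poly(A) RNA was sequenced from 4 groups of 2 cultures each. The groups were the ve-1 mutant in iron-free medium, ve-1 in standard medium, wild type in iron-free medium and wild type in standard medium. All cultures had Vogel's minimal medium with 1.5% sucrose, and the labels give neither the nature of the ve-1 allele nor the strain background. The genes described here are the 53, of 9730 listed, whose transcripts were highest in the ve-1 mutant without iron. Counts were divided by median-of-ratios size factors and averaged within each group, and 1 was added to each mean. A gene was taken when its mean in iron-free ve-1 was at least 100 and at least 3-fold above the mean of each of the other 3 groups. Before 4 loci were set aside (nmt-1, NCU06110, arg-5 and arg-6), 54 genes met these conditions, and of the 4 only arg-5 did.

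VE-1 is a protein of the velvet family, fungal regulators that act together with a LaeA-type methyltransferase and link development with secondary metabolism and light. Iron is needed for heme and for iron-sulfur clusters, and some enzymes of respiration, of the tricarboxylic acid cycle and of branched-chain amino acid synthesis depend on these cofactors. Whether any of the 53 genes encodes such an enzyme was not examined. Among the 53 genes, 11 carry a symbol. They are genes of amino acid and nitrogen metabolism (am, ilv-2 and leu-1), of vitamin synthesis (pdx-1, pdx-2 and pan-2), of mitochondrial energy metabolism (cit-1, aod-1 and aod-3), the formate dehydrogenase gene fdh, and ci-1. The other 42 are known here by locus number only, and no function is given for them.

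Total counts per library ran from 6654585 to 10192729. Normalised counts of ve-1 itself were 14.7 and 51.8 in the iron-free ve-1 cultures, 23.2 and 36.4 in ve-1 with iron, 2254 and 1885 in iron-free wild type and 1273 and 1901 in wild type with iron. The mating-type gene matA-1 had 0.981 and 3.24 normalised counts in the iron-free ve-1 cultures, 0 and 524 in ve-1 with iron, 56 and 0 in iron-free wild type and 139 and 0 in wild type with iron. Both iron-free ve-1 cultures therefore lacked the level of matA-1 seen in 1 culture of each other group, and the part of this difference in the results was not tested. In wild type it was culture 1 that had matA-1 counts in both media, and the labels do not say whether the cultures of a group came from 1 strain. Of the conidial markers, 15 genes were found for 16 symbols, 2 of which name the same gene, and none of them met the rule. Their summed level was 541743 and 102455 normalised counts in the iron-free ve-1 cultures, 980028 and 1101530.0 in ve-1 with iron, 106060.0 and 150874 in iron-free wild type and 771699 and 465668 in wild type with iron. The conidial sum was thus lower in iron-free ve-1 than in ve-1 with iron, unlike the 53 genes. In ve-1 with iron most of it was eas, at 762785 and 837162. Not every marker went this way. In iron-free ve-1 ccg-6 was higher (41660 and 39918 against 29102 and 30667 in ve-1 with iron). So were cmt (7595 and 6939 against 2389 and 2697) and acon-2 (367 and 207 against 187 and 161). The remaining markers had lower means in iron-free ve-1. Most of the gap between the iron-free ve-1 cultures came from the hydrophobin gene eas, at 430164 and 20017, and con-13 had no counts in culture 2. The 10 markers of sexual structures summed to 1177 and 829 in iron-free ve-1 and 23879 and 2616 in ve-1 with iron. In wild type the sums were 4858 and 4263 without iron and 2839 and 3699.6 with iron, so iron-free ve-1 was lowest. Of the 23879, mfa-1 gave 17030 and poi-2 5264, and asd-1 gave 3827 and 2961 of the iron-free wild-type sums. The ccg-4 gene was at 0 and 1133 in ve-1 with iron and 1323 and 1.24 in wild type with iron. It was at most 9.71 in any culture without iron. With iron it was thus high only where matA-1 had counts, so the sums also hold differences between cultures of a group. By group mean asd-1, asd-4, mfa-1 and pre-1 were not lowest in iron-free ve-1, while the remaining markers were. fmf-1 had no counts in either iron-free ve-1 culture and at most 1.3 elsewhere. In whole cultures, a change in the share of a cell type and a change in RNA per cell cannot be told apart. Values are given below in pairs, culture 1 and then culture 2 of a group, as normalised counts. They grow with transcript length, so levels are not compared between genes.

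**Figure D1:**
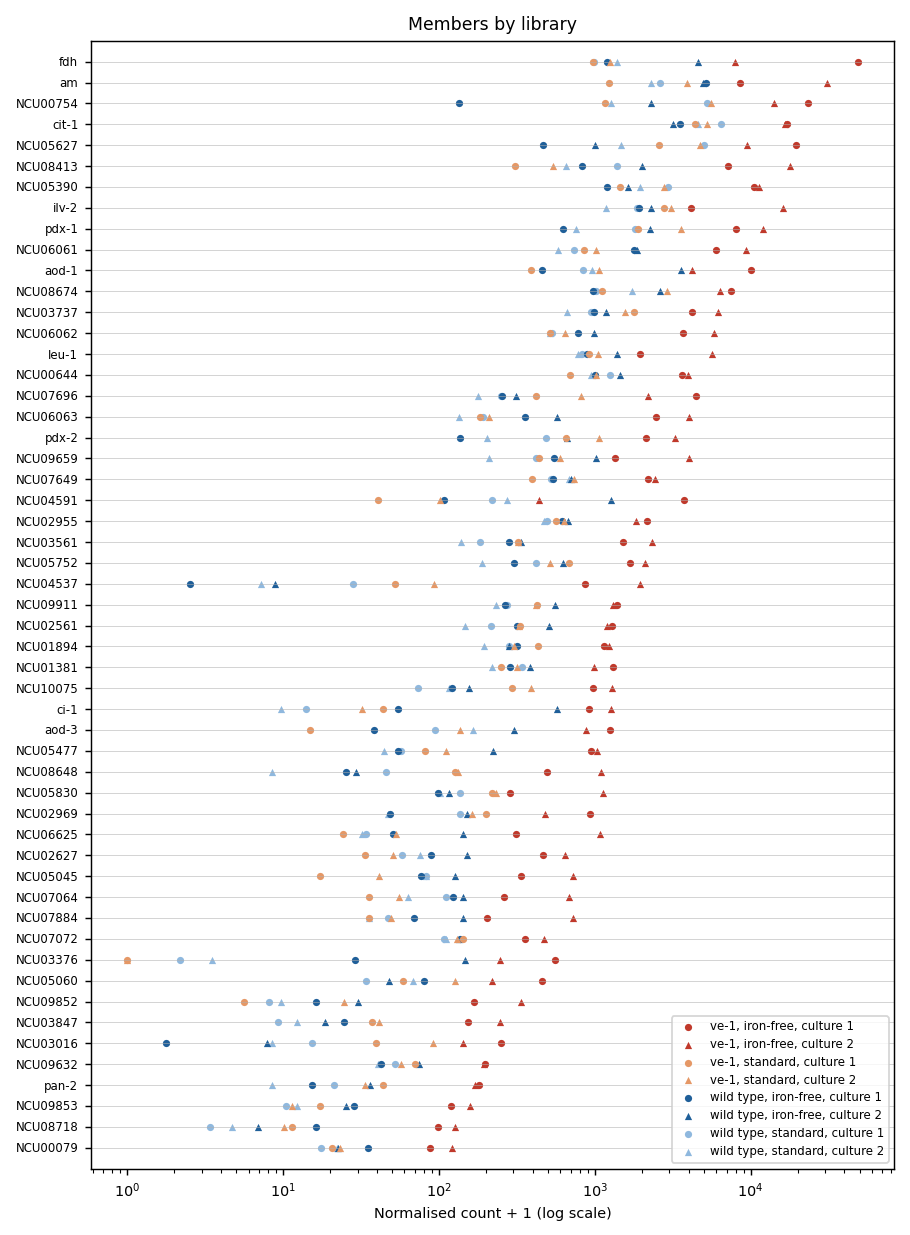
Normalised count plus 1 (log axis) of the 53 genes, 1 row per gene, in each of the 8 libraries; colours mark the 4 groups, circles culture 1 and triangles culture 2. In 52 of the 53 rows both iron-free ve-1 points lie to the right of all other 6 points; the exception is NCU04591.

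The genes stood out by moderate factors in most cases, and none but NCU03376 was silent in another group. The fold over the next highest group mean ran from 3.01 to 19.3 with a median of 3.73; it was under 3.5 for 20 genes and at least 5 for 17. Median folds were 5.15 over ve-1 with iron, 5.16 over iron-free wild type and 7.93 over wild type with iron. The next highest group was iron-free wild type for 28 genes, ve-1 with iron for 23 and wild type with iron for 2. Both iron-free ve-1 cultures lay above all other 6 libraries for 52 of the 53 genes; 12.1% of the 8118 tested genes did so, and since the rule chose the genes on these values the count is a description.

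Vitamin B6 and pantothenate genes were among the 53. The neighbouring genes pdx-1 and pdx-2 encode the subunits that together make pyridoxal phosphate, the active form of vitamin B6. pdx-1 had 8061 and 12003 normalised counts in the iron-free ve-1 cultures, against 1887 and 3569 in ve-1 with iron, 620.0 and 2275 in iron-free wild type and 1816 and 759 in wild type with iron. For pdx-2 the values were 2137 and 3266 in iron-free ve-1, 651 and 1068 in ve-1 with iron, 135 and 659 in iron-free wild type and 486 and 201 in wild type with iron. Both genes were lowest in culture 1 of iron-free wild type, and both iron-free ve-1 cultures lay above every other culture. The folds over the next group were 3.68 for pdx-1 and 3.14 for pdx-2. Neither pdx-3 nor pdx-4, the other 2 genes with that symbol, met the rule, with folds of 1.74 and 0.543. The pan-2 gene, for the ketopantoate hydroxymethyltransferase of pantothenate synthesis, had 180.4 and 169 normalised counts in the iron-free ve-1 cultures, against 42.9 and 32.5 in ve-1 with iron, 14.4 and 35.1 in iron-free wild type and 20.1 and 7.44 in wild type with iron. Its iron-free ve-1 cultures were close to each other and 4.54-fold above the next group, while pan-4 was at 181 and 366 in iron-free ve-1 and 99.2 and 110.3 in iron-free wild type, a fold of 2.6 below the threshold. The pan-3 gene was at 23.5 and 29.8 in iron-free ve-1, with a fold of 1.87.

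The members from nitrogen assimilation and branched-chain amino acid synthesis, am, ilv-2 and leu-1, were each high mainly in culture 2 of iron-free ve-1. The am gene encodes the NADP-specific glutamate dehydrogenase, which fixes ammonium into glutamate, and had 8552 and 31068 normalised counts in the iron-free ve-1 cultures, against 1233 and 3876 in ve-1 with iron, 5165 and 4976 in iron-free wild type and 2609 and 2294 in wild type with iron. Culture 2 was the highest library by far, whereas culture 1 was 1.69-fold above the mean of iron-free wild type. ilv-2, for the acetohydroxy acid isomeroreductase shared by isoleucine and valine synthesis, had 4120.3 and 16227 normalised counts in the iron-free ve-1 cultures, against 2779 and 3074 in ve-1 with iron, 1909.9 and 2297 in iron-free wild type and 1876 and 1171 in wild type with iron. Again culture 2 carried the difference, with 5.54-fold over ve-1 with iron and 1.41-fold in culture 1. leu-1, for the 3-isopropylmalate dehydrogenase of leucine synthesis, had 1941 and 5664 normalised counts in the iron-free ve-1 cultures, against 912 and 1042 in ve-1 with iron, 887 and 1379 in iron-free wild type and 823 and 780.1 in wild type with iron. Its pattern was like that of ilv-2, with 1.71-fold in culture 1 and 5-fold in culture 2 over the iron-free wild-type mean.

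Other genes of these pathways, picked by symbol after the values had been seen, did not all follow. ilv-6 and ilv-4 stayed just below the threshold with folds of 2.9 and 2.74; ilv-4 was at 2515 and 5460.2 in iron-free ve-1, 735 and 1003 in ve-1 with iron, 1069 and 1844 in iron-free wild type and 848 and 654 in wild type with iron. ilv-5, in contrast, was at 2019 and 1118 in iron-free ve-1 and 3413 and 4058 in ve-1 with iron. leu-4, for the isopropylmalate synthase, was at 1089 and 1646 in iron-free ve-1 and 2655 and 2419.8 in ve-1 with iron. leu-2, for the isopropylmalate isomerase, spread widely, at 504 and 2595 in iron-free ve-1, with only culture 2 above the 1883 and 1856 of ve-1 with iron. The glutamine synthetase gene gln-1 was at 10608 and 13526 in iron-free ve-1, 1793 and 2919 in ve-1 with iron, 3669 and 2495 in iron-free wild type and 6139.9 and 3625 in wild type with iron, a fold of 2.47; its 2 iron-free ve-1 cultures were above all others. For gln-2 the fold was 1.02, and for gdh-1, the NAD-specific glutamate dehydrogenase gene, 0.936.

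**Figure D2:**
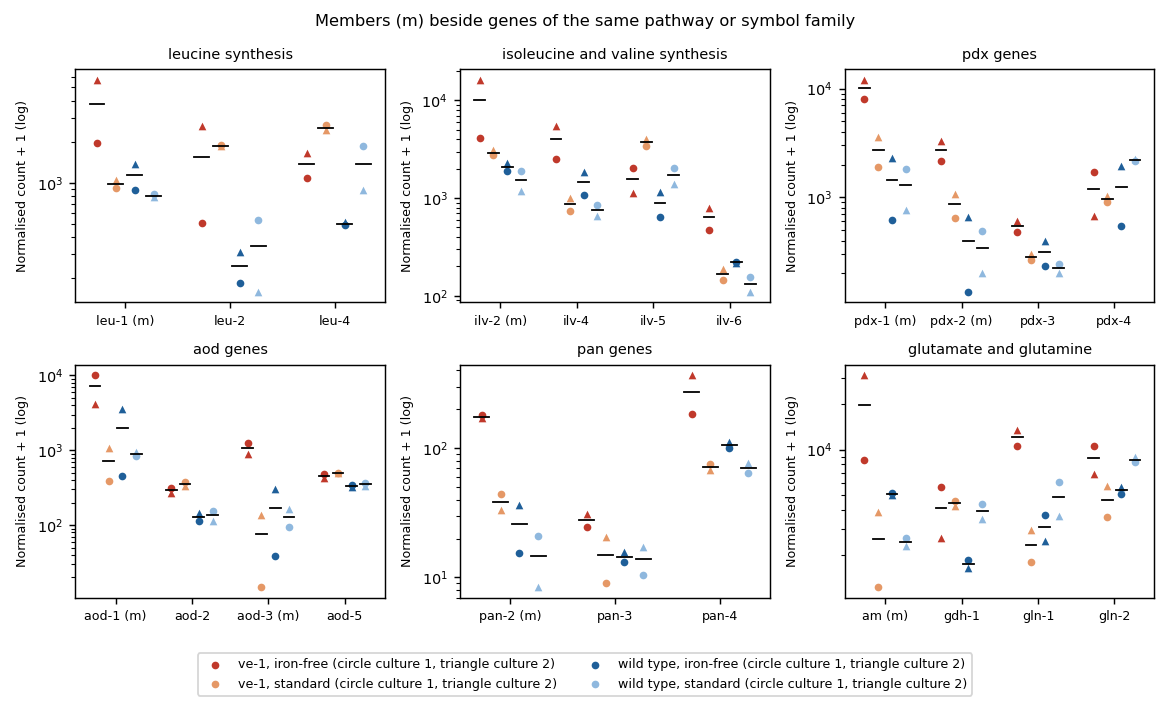
Normalised count plus 1 (log axes) of genes that share a pathway or symbol family, for each of the 4 groups from iron-free ve-1 on the left to standard wild type on the right within each gene; circles are culture 1, triangles culture 2, bars the mean of 2 cultures, and (m) marks genes among the 53. Both pdx-1 and pdx-2 are highest in iron-free ve-1, while leu-4 and ilv-5 have their highest mean in ve-1 with iron.

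Mitochondrial energy genes formed another set. Alternative oxidase takes electrons from ubiquinol to oxygen and so bypasses the cytochrome part of the respiratory chain; aod-1 and aod-3 are its structural genes. aod-1 had 10061 and 4219 normalised counts in the iron-free ve-1 cultures, against 386 and 1063 in ve-1 with iron, 456 and 3548 in iron-free wild type and 844 and 955 in wild type with iron. Both iron-free ve-1 cultures were the highest, but culture 2 was close to culture 2 of iron-free wild type. aod-3 had 1241 and 881 normalised counts in the iron-free ve-1 cultures, against 13.9 and 135 in ve-1 with iron, 37.1 and 303 in iron-free wild type and 93.4 and 164 in wild type with iron, with no overlap and a fold of 6.22, which was 3.49 without culture 1 of iron-free wild type. The genes aod-2 and aod-5, known to encode zinc cluster regulators of aod-1, were at 312 and 269 and at 481 and 419 in iron-free ve-1, with folds of 0.824 and 0.911. cit-1, for citrate synthase, the entry enzyme of the tricarboxylic acid cycle, had 17162 and 16683 normalised counts in the iron-free ve-1 cultures, against 4395 and 5277 in ve-1 with iron, 3516 and 3155 in iron-free wild type and 6406 and 4581 in wild type with iron. The iron-free ve-1 cultures were close to each other, at 16922 ± 339 (SD, n = 2), and the fold of 3.08 was near the threshold. fdh, for formate dehydrogenase, had 48799.7 and 7879 normalised counts in the iron-free ve-1 cultures, against 973 and 1258 in ve-1 with iron, 1194 and 4605 in iron-free wild type and 989 and 1394 in wild type with iron. Culture 1 was 6.19 times culture 2, and culture 2 was itself above all other 6 libraries. ci-1 had 918 and 1277 normalised counts in the iron-free ve-1 cultures, against 42.9 and 31.2 in ve-1 with iron, 53.7 and 567 in iron-free wild type and 13 and 8.68 in wild type with iron; after the iron-free ve-1 cultures, culture 2 of iron-free wild type stood far above the remaining libraries.

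The largest folds belonged to genes without a symbol, apart from fdh. NCU04537 had 858 and 1947 normalised counts in the iron-free ve-1 cultures, against 51 and 92.4 in ve-1 with iron, 1.51 and 7.81 in iron-free wild type and 27.2 and 6.2 in wild type with iron, so that its fold of 19.3 was the highest of the 53; it was 11.8 without culture 2 of iron-free ve-1. All 4 wild-type values lay below those of ve-1 in either medium. NCU09852 had 168 and 333 normalised counts in the iron-free ve-1 cultures, against 4.63 and 23.4 in ve-1 with iron, 15.1 and 29.3 in iron-free wild type and 7.09 and 8.68 in wild type with iron, a fold of 10.8. NCU08718 followed with a fold of 9.77 at a low level, 97.1 and 126 in iron-free ve-1 and at most 15.1 in any other culture. NCU08413 had 7189 and 17982 normalised counts in the iron-free ve-1 cultures, against 306 and 539.9 in ve-1 with iron, 824 and 1999.8 in iron-free wild type and 1387 and 651 in wild type with iron, a fold of 8.91 that was 5.14 without culture 2 of iron-free ve-1. With iron its ve-1 cultures were below both wild-type cultures, while without iron they were above both. NCU03376 had 555 and 245 normalised counts in the iron-free ve-1 cultures, against 0 and 0 in ve-1 with iron, 28 and 145 in iron-free wild type and 1.18 and 2.48 in wild type with iron. It was the only one of the 53 with a library at 0: set against a floor of 3 counts over the 2 cultures of ve-1 with iron, iron-free ve-1 was at least 217-fold higher, a bound that covers counting error only.

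Other abundant members without a symbol were highest in both iron-free ve-1 cultures. NCU00754 had 23229 and 14046 normalised counts in the iron-free ve-1 cultures, against 1167 and 5603 in ve-1 with iron, 132 and 2287 in iron-free wild type and 5245 and 1260.1 in wild type with iron, and iron-free wild-type culture 1 was the lowest of all. NCU05390 was at 10504 and 11399 in iron-free ve-1 and at most 2934 elsewhere, NCU08674 at 7466 and 6384 and at most 2899, NCU07649 at 2178 and 2446 and at most 734. NCU05627 had 19517 and 9501 normalised counts in the iron-free ve-1 cultures, against 2597 and 4743 in ve-1 with iron, 467 and 1000.4 in iron-free wild type and 5009.8 and 1472 in wild type with iron; here culture 1 alone met the rule, and both iron-free wild-type cultures lay below both wild-type cultures with iron. For the remaining members the mean in iron-free ve-1 ran down to 103, in NCU00079.

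Of the 53 genes, 7 lay in 3 runs of neighbours in the gene order of the RefSeq assembly NC12. The longest was NCU06061, NCU06062 and NCU06063, adjacent to one another. NCU06061 had 5950.1 and 9336 normalised counts in the iron-free ve-1 cultures, against 847 and 1017 in ve-1 with iron, 1792 and 1852 in iron-free wild type and 738 and 578 in wild type with iron. NCU06062 was at 3681 and 5858 in iron-free ve-1, 518 and 641 in ve-1 with iron, 779 and 991 in iron-free wild type and 532 and 511 in wild type with iron. The same order of group means held for NCU06063, at 2450.4 and 4022 in iron-free ve-1, 183 and 209 in ve-1 with iron, 354 and 569 in iron-free wild type and 189 and 133 in wild type with iron. All 3 genes were higher in culture 2 than in culture 1 of iron-free ve-1, and their folds over the next group were 4.19, 5.39 and 7. The pair pdx-1 and pdx-2 was the second run. The third was NCU09852 with NCU09853; NCU09853 was at 118 and 157 in iron-free ve-1 and at most 27.3 elsewhere; its flanking genes NCU09851 and NCU09854 had folds of 0.297 and 0.717. Of the 53, 9 overlap another annotated gene, among them ilv-2, pdx-1, pan-2, NCU09852 and NCU10075, so their counts are uncertain where the strand setting of the counting is not given.

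The 2 iron-free ve-1 cultures were then taken separately, each in place of the group mean. On that measure 25 genes met the rule in each culture alone and 28 in a single culture. Culture 1 alone carried 11: fdh, aod-1, NCU05627, NCU04591, NCU02955, NCU02561, NCU01381, NCU02969, NCU03376, NCU05060 and NCU03016. Culture 2 alone carried 17: am, ilv-2, leu-1, pdx-1, pdx-2, ci-1, NCU03737, NCU00644, NCU09659, NCU05752, NCU10075, NCU05830, NCU07064, NCU07884, NCU07072, NCU08718 and NCU00079. For NCU08718 and NCU00079 it was the level of 100 and not the fold that culture 1 missed. Of these 28 genes, 20 were at least 2-fold above the next group in both cultures. The 8 genes with a culture under 2-fold were am, ilv-2, leu-1, NCU09659, NCU05830, NCU07064 and NCU07884, low in culture 1, and NCU04591, low in culture 2. NCU04591 had 3717 and 436 normalised counts in the iron-free ve-1 cultures, against 39.4 and 100.2 in ve-1 with iron, 107 and 1273 in iron-free wild type and 216 and 272 in wild type with iron, so culture 2 lay below culture 2 of iron-free wild type. The higher iron-free ve-1 culture was culture 2 for 34 genes and culture 1 for 19; over all tested genes culture 2 was the higher in 49.7%. The ratio of the higher to the lower culture had a median of 1.57 and reached 8.52 in NCU04591. Leaving out 1 library moved the fold over the next group by over 1.5 times in 24 of the 53 genes, mostly through an iron-free ve-1 or iron-free wild-type culture. Without culture 1 of iron-free wild type 13 genes were under 3-fold, among them aod-1 at 2.01, ci-1 at 1.93, NCU03376 at 2.73 and NCU04591 at 1.63; without culture 2 of that group ci-1 was at 19.9, fdh at 23.5 and aod-1 at 7.93. The cultures also differed in the conidial sum given above, higher in culture 1; its part in the genes carried by culture 1 was not tested.

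**Figure D3:**
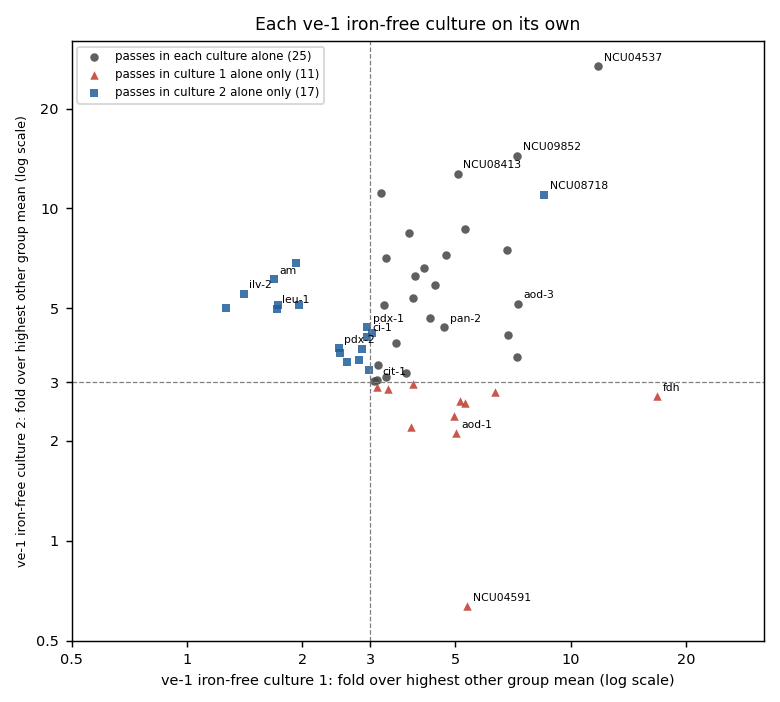
Fold of iron-free ve-1 culture 1 (x axis) and culture 2 (y axis) over the highest other group mean, both log axes, 1 point per gene; dashed lines mark 3-fold. The 25 grey points passed in each culture, the 11 triangles in culture 1 alone and the 17 squares in culture 2 alone, with am, ilv-2 and leu-1 left of 2-fold and NCU04591 at the bottom.

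At the fold threshold the genes passed into their neighbours without a gap. At the level threshold no gene with the needed fold lay between means plus 1 of 82.4 and 104. By fold, the lowest inside were NCU04591 (3.01), NCU02561 (3.01) and NCU03016 (3.02), and the highest outside were NCU02737 (2.96), NCU06726 (2.95) and lys-3 (2.95). By level, NCU00079, NCU08718 and NCU09853 were the lowest inside, with means plus 1 of 104, 112 and 138, and NCU06919, NCU04697 and NCU00437 the highest outside, with 82.4, 66.6 and 57.3.

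Contrasts that hold the iron-free ve-1 group were used by the rule and are given as counts only. With edgeR's quasi-likelihood test and Benjamini-Hochberg adjustment over 8118 genes, at an adjusted p under 0.05, 43 of the 53 were called higher for loss of ve-1 without iron, where 8.36% of tested genes were, and 42 were called higher without than with iron in ve-1, where 10.9% were. No member was called in the interaction, the difference between the iron effects in the 2 genotypes, which called 0.246% of tested genes (20). In the interaction 31 members had an unadjusted p under 0.05, and DESeq2 called 19. Neither of these counts has a share of all tested genes beside it, so nothing is read from them. Without ve-1 standard replicate 1 no member was called for the iron effect in ve-1 (41 at an unadjusted p under 0.05), and 22 were without ve-1 standard replicate 2, 20 without ve-1 iron-free replicate 2. Calls for loss of ve-1 without iron came to 22 when wild-type iron-free replicate 1 was left out and to 25 when ve-1 iron-free replicate 2 was. These counts with 1 library left out stand without the number of all genes called in the same fits. A loss of calls across all genes therefore cannot be told from a loss particular to the members. The authors' deposited tables list 1548 genes for ve-1 against wild type without iron, 49 of them members. They list 1837 for iron-free against standard medium in ve-1, with all 53 members. Each member listed there has a positive log2 fold change.

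The remaining contrasts leave out the iron-free ve-1 cultures. The rule capped the means of the other 3 groups as well, so these contrasts are not fully independent of the choice of genes. In standard medium the question is whether loss of ve-1 alone moved them. It raised 7 of the 53 and lowered none; over all tested genes 12.5% were called higher and 15.3% lower, and the members' share of 13.2% higher was near that background. NCU05045 was called lower by DESeq2 (log2 fold change -1.54, adjusted p = 0.0297), and NCU04591 was with edgeR on the 4 compared libraries alone (log2 fold change -1.80, adjusted p = 0.0426). An edgeR fit with a block for the culture number also called NCU05045 lower (log2 fold change -1.68, adjusted p = 0.0268). That fit kept 2 of the 7 higher calls. At an unadjusted p under 0.05 there were 11 higher and 1 lower, counts with no share of all tested genes beside them. The genes called were NCU03016, NCU08648, NCU03847, NCU10075, NCU07696, NCU03737 and NCU03561. NCU10075 had 292 and 389 normalised counts in ve-1 and 72.1 and 114 in wild type (log2 fold change 1.86, SE 0.32, adjusted p = 0.00955). Of 14 alternatives this call was lost in 1, without ve-1 standard replicate 1 (adjusted p = 0.0557), and each of the other 6 calls in 4 to 8. NCU03847 was at 35.9 and 40.3 in ve-1 and 8.27 and 11.2 in wild type (log2 fold change 1.94, SE 0.44, adjusted p = 0.019). NCU08648, at 126 and 131 in ve-1 and 44.9 and 7.44 in wild type (log2 fold change 2.27, SE 0.70, adjusted p = 0.0498), was near the threshold. NCU03016 was at 38.2 and 89.8 in ve-1 and 14.2 and 7.44 in wild type (log2 fold change 2.53, SE 0.76, adjusted p = 0.0449). For NCU07696 the fit gave log2 fold change 1.52, SE 0.44, adjusted p = 0.0416, for NCU03737 log2 fold change 1.05, SE 0.31, adjusted p = 0.0412, and for NCU03561 log2 fold change 0.98, SE 0.28, adjusted p = 0.0401. In each of these 7 genes both ve-1 cultures lay above both wild-type cultures. The same cultures gave the calls, so this is a description and adds no support to them. The median log2 fold change of the 53 was 0.45, against -0.03 over all tested genes, and 40 of 53 were positive, where 48.4% of tested genes were. The number called was 2 without wild-type standard replicate 1, 1 without wild-type standard replicate 2, 0 without ve-1 standard replicate 1 (8 at an unadjusted p under 0.05) and 1 without ve-1 standard replicate 2. These numbers, too, stand without the number of all genes called in the same fits. Of the 9730 genes, the authors' deposited table lists 2197 for this comparison. Among them are 10 of the 53, a share not above that of all genes. Of these 10, 8 are higher in ve-1 and 2 lower, the 2 being NCU08413 and NCU04591.

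Absence of iron in wild type raised 2 of the 53 and lowered none, where 1.47% of tested genes were called higher and 5.1% lower; the members' share called higher was 3.77%. DESeq2 called NCU05627 lower (log2 fold change -2.14, adjusted p = 0.00957). At an unadjusted p under 0.05, 11 were higher and 2 lower, again with no share of all tested genes beside them. NCU06061, of the run of 3 neighbours, was at 1792 and 1852 in iron-free wild type and 738 and 578 in wild type with iron (log2 fold change 1.44, SE 0.31, adjusted p = 0.0376). ci-1 was at 53.7 and 567 in iron-free wild type and 13 and 8.68 with iron (log2 fold change 4.79, SE 1.10, adjusted p = 0.0488). In both genes the groups did not overlap, which describes the cultures that gave the calls and adds no support to them. The ci-1 difference came largely from culture 2, and without that culture the log2 fold change was 2.35. The median log2 fold change was 0.47 over the 53 and 0.03 over all tested genes, and 45 of 53 were positive, where 51.7% of tested genes were. Both calls were lost without either wild-type standard culture, either ve-1 standard culture or wild-type iron-free replicate 2; NCU06061 was also lost without wild-type iron-free replicate 1, and ci-1 without either iron-free ve-1 culture. Both contrasts use the same wild-type cultures with iron, so their values are not independent of each other. The authors' deposited table for this comparison lists 1004 of the 9730 genes. Among them are 5 of the 53, 4 higher without iron and 1 lower, a share not above that of all genes.

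**Figure D4:**
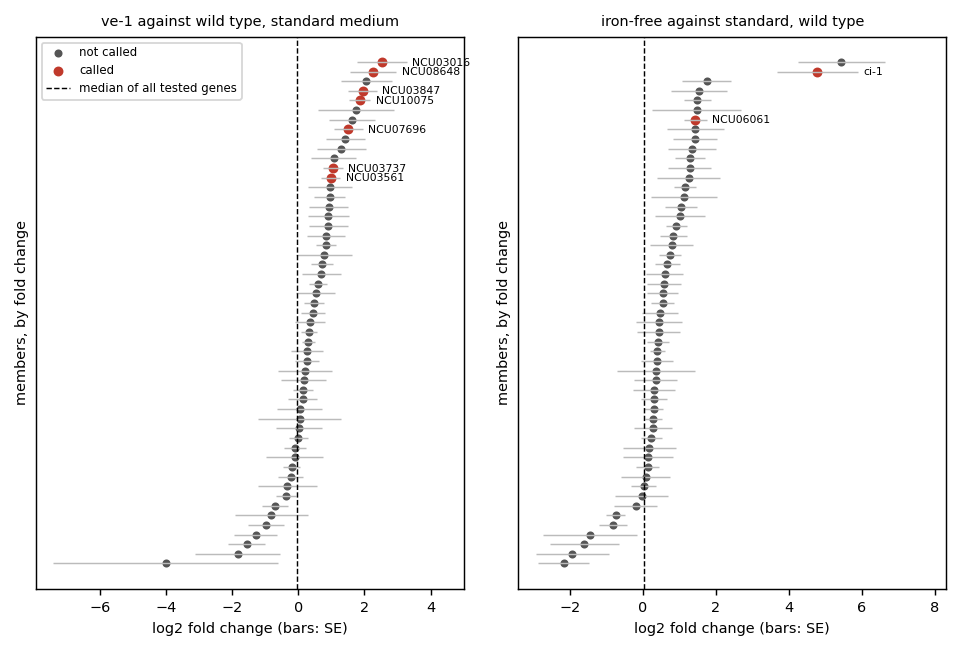
Log2 fold change with its standard error (edgeR) for the 53 genes, 1 row per gene in order of fold change, for loss of ve-1 with iron (left) and iron-free against standard medium in wild type (right); red points were called at an adjusted p under 0.05 and the dashed line is the median of all tested genes. The 7 and 2 red points all lie on the positive side.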

How the data were processed

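The authors deposited raw read counts per gene for 8 libraries, with no normalization. FastQC, Trim Galore, STAR and DESeq2 are named in the submitters' processing notes; no source used here names the counting tool, strand setting, genome build or annotation. The authors' deposited comparison tables give group means of normalised counts (signal), log2 fold changes and adjusted p-values, for genes with an adjusted p under 0.05. Only the number of genes listed, the listed members and their signs were used. Groups and culture numbers came from the sample titles. The design text calls the libraries duplicate cultures.

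Symbols and gene order came from the RefSeq table of assembly NC12, which holds 9729 of the 9730 listed genes; its positions served only for gene order and overlaps, and none are given. Tests used R 4.3.3 and edgeR 4.0.16: filterByExpr (minimum count 10, minimum total 15) left 8118 genes and all 53 members, each of which also passed through the other 6 libraries. TMM scaling, 4 groups in 1 robust quasi-likelihood fit and two-sided tests followed, with Benjamini-Hochberg adjustment over all tested genes. Standard errors were derived from the fold change and the F statistic. DESeq2 1.42.0 was an alternative. The fit was also run on simulated counts that had the same spread for every gene. That check does not cover the differences between cultures seen here. The 2 cultures a group limit the precision, and members with few counts in a group carry counting error as well.

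The members and gene lists were chosen with earlier results of these data known. Genes named are members with a symbol, the most counted, those with the largest folds, called members, neighbours and those nearest the thresholds; the pathway and symbol families were added after the values were seen.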

Additional observations from a re-analysis of the deposited data

How the results depend on the processing

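With TMM in place of median-of-ratios scaling, 54 genes met the rule, with all 53 among them, and 27 did so in each iron-free ve-1 culture. Total-count scaling gave 94 and 49, and 11 members called for ve-1 in standard medium and 12 for iron absence in wild type; it moved the median log2 fold change of all genes by 0.31 and 0.52 in these contrasts, so changes are given relative to TMM. Leaving out 1 library gave 40 to 75 genes by the rule, 19 to 37 passing in each culture, 0 to 9 members called for ve-1 in standard medium, 0 to 3 for iron absence in wild type, 22 to 41 for ve-1 in iron-free medium, 0 to 46 for iron absence in ve-1 and 0 in every case for the interaction. The rule gave 40 genes without wild-type iron-free replicate 1 and 65 without replicate 2. With no low-count filter 1 member was called in the interaction. The 4 compared libraries alone gave 0 calls by edgeR for iron absence in wild type (14 at an unadjusted p under 0.05). DESeq2 gave 7, but it was run on all 8 libraries, so both the tool and the set of libraries differ. DESeq2 gave 19 in the interaction. Counts by DESeq2, at an unadjusted p and with 1 library left out are given without the share of all tested genes. A change in calls across all genes therefore cannot be told from a change particular to the members. With the replicate block, 3 members were called for ve-1 in standard medium, 2 higher, both among the 7, and NCU05045 lower (log2 fold change -1.68), 1 for iron absence in wild type and 1 in the interaction; the labels say nothing of what the numbers share. The names of the deposited files carry a further code that recurs with the number across media within a genotype and may mark a strain, which no source used here states. Deviations of same-numbered cultures correlated between -0.03 and 0.13, and both ends of this range were pairs across genotypes. Between the media the correlation was -0.0024 within ve-1 and 0.056 within wild type. The numbers were not taken as pairs, though such a correlation over all tested genes does not test for a shared strain. A strain shared by same-numbered cultures could not be told from culture. The cause of these changes was not tested. Of the 9 single calls named, none changed sign under any of 14 alternatives each. The groups compared did not overlap in these genes, so leaving out 1 library could hardly reverse a sign, and nothing is read from this. The ci-1 call was lost in 9 of the 14 alternatives and the NCU06061 call in 7.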

Other observations

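The wild-type iron-free cultures differed in the 53 genes: culture 2 was above culture 1 in 44 of them, while 48.7% of all tested genes were higher in culture 2. In 26 of the 53, wild-type iron-free culture 2 was the highest of the other 6 libraries. Among the 28 genes with iron-free wild type as the next highest group, culture 2 was the higher in 24. The counts of 26 and 24 have no share of all tested genes beside them. The ve-1 cultures with iron differed the same way in 40 of the 53 genes, where 48.2% of all tested genes were higher in culture 2. The wild-type cultures with iron differed the other way, with culture 1 higher in 36. Over all tested genes, wild-type culture 2 with iron was the higher in 49.9%.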
